A study of Mus musculus with 12 samples.

Results

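The genes of the proteasome were examined in mouse aorta, taken as every gene on the array whose symbol begins with Psma to Psmg followed by a digit. The rule found 49 genes among 34796 gene names, read by 62 probes on 71 spots. By role they were 7 alpha and 7 constitutive beta subunits of the catalytic core, the 3 immune beta subunits Psmb8, Psmb9 and Psmb10, the tissue-specific subunits Psma8 and Psmb11, 6 ATPase and 11 non-ATPase subunits of the regulatory particle, 7 assembly chaperones and 5 genes of activators or inhibitors. The rule also took in Psmc3ip, which is not a subunit: it encodes a partner of recombinases that was named for binding Psmc3.

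RNA was measured with 1 one-colour array for each of 12 C57BL/6J mice, 3 mice per group, on day 3. Per the methods the animals were male adults and RNA came from a stretch of aorta above the branch of the right renal artery. DMSO mice received the vehicle dimethylsulfoxide alone per the labels. The titles of their samples begin with Pre, a word used elsewhere in the study for tissue taken before the challenge, so that they were injected rests on the labels alone. Rapamycin mice received rapamycin, an inhibitor of the kinase mTOR, at 2 mg/kg/day in DMSO. BA+DMSO mice received vehicle and the BAPN + AngII challenge, a model of aortic dissection that infuses the collagen crosslink inhibitor beta-aminopropionitrile (BAPN) at 150 mg/kg/day with angiotensin II (AngII) at 1 µg/kg/min. BA+rapamycin mice received the same challenge with rapamycin at 2 mg/kg/day. Per the series' design all injections were of rapamycin or vehicle, once a day. The titles of 10 samples carry a date, whose meaning the labels do not give, and those of BA+DMSO replicates 2 and 3 carry none.

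The proteasome is the protease that degrades proteins marked with ubiquitin. Its barrel-shaped core holds rings of alpha subunits around rings of beta subunits, a few of which cut proteins, and a regulatory particle of ATPase and non-ATPase subunits binds, unfolds and feeds in the substrate. In leukocytes, and in other cells exposed to interferon gamma, Psmb8, Psmb9 and Psmb10 take the places of the catalytic subunits Psmb5, Psmb6 and Psmb7, and the resulting immunoproteasome favours peptides that can be loaded on MHC class I.

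The arrays of the challenged groups differed from each other more than those of the unchallenged groups. Brightness, taken as the 75th percentile of processed signal, was 221 to 280 in DMSO, 257 to 337 in rapamycin, 74.6 to 109 in BA+rapamycin and, for replicates 1, 2 and 3 of BA+DMSO, 132, 78.1 and 246. Arrays of a group correlated across probes at 0.912 to 0.961 in BA+DMSO and at 0.974 or higher in the other groups. One of the 2 slides held the DMSO arrays and rapamycin replicate 1, and its partner held the remaining 8. No slide thus held both groups of the challenge on vehicle, and slide and challenge can be separated there only through the rapamycin group. All 7 smooth muscle markers tested (Acta2, Myh11, Tagln, Cnn1, Smtn, Des and Myocd) were well above background on all 12 arrays. Levels are log2 signal minus the array's 75th percentile, differences are on the same log2 scale, and a gene was called at a limma adjusted p under 0.05 over all tested probes.

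The sequences just upstream of the 3 immune genes are shown because these genes rose together, with that of the constitutive counterpart Psmb5 beside them. They are the 250 bases before the RefSeq start site, 5′ to 3′ on the gene's strand in GRCm38.p6. Psmb8 lies on the plus strand (chr17:34197945-34198194), and Psmb9 (chr17:34187331-34187580), Psmb10 (chr8:105938393-105938642) and Psmb5 (chr14:54617996-54618245) on the minus strand. Capitals mark every match to 1 of 4 motifs searched on both strands.
Psmb8: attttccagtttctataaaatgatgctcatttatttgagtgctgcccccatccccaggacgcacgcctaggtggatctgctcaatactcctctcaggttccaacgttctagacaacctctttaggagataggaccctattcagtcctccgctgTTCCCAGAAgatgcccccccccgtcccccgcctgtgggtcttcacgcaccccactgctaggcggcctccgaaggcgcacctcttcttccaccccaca
Psmb9: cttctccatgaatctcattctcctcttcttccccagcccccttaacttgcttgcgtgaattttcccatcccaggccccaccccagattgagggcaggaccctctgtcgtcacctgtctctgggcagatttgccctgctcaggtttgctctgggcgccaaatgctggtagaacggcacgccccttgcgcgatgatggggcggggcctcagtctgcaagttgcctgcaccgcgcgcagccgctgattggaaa
Psmb10: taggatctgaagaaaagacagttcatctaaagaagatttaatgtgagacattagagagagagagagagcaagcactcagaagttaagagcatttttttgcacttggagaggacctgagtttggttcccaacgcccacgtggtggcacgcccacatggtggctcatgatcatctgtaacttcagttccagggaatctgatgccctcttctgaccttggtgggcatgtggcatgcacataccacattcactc
Psmb5: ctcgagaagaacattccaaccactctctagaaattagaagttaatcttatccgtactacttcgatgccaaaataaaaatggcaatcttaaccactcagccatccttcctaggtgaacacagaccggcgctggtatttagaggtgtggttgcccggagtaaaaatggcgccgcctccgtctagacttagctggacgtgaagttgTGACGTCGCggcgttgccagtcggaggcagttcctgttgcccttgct

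A window was found for 41 of the 49 genes, and the same length was searched in 32851 mouse windows. The pattern TTCNNNGAA of gamma-activated sites, which reads the same on both strands, stood in Psmb8 and Psmg1, and in 7.02% of all windows. In Psmb8 its first base was 97 bases before the start site. The interferon response pattern, a pair of GAAA blocks with 2 bases of any kind between them, stood in Psmb3, Psmd4 and Psmd9 and in 2.98% of all windows, and in none of the 3 immune genes. The antioxidant response pattern TGACNNNGC stood in Psmb5, Psmb6, Psmc6, Psmd9 and Psmd12 and in 10.2% of all windows. The NF-kB pattern, GGGA and TTTCC with 1 base of any kind between them, stood in no window of these genes and in 0.356% of all windows. No matches of different motifs overlapped. A match is a description of letters and not of a bound site. Psmb9 faces the peptide transporter gene Tap1 on the opposite strand, and their RefSeq start sites are 226 bases apart.

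Of the 49 genes, 47 were tested, and 46 of these were well above background on all 12 arrays. Psmc3ip was so on 11. Psma8, the testis form of an alpha subunit, and Psmb11, the thymus form of a catalytic subunit, were not well above background on any array and were not tested.

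The first comparison asked what the challenge did in vehicle-treated aorta. Of the 47 genes tested, the 3 immune subunits rose and no gene fell. Among all 20026 genes tested, 10.4% were called higher and 11.0% lower. The 3 genes that rose were thus 3 of 3 immune subunits and 0 of 44 others, and at an unadjusted p under 0.05 only 2 genes lay lower, where 19.5% of all genes did.

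Psmb8, the immune counterpart of Psmb5, had levels of 0.74, 0.49 and 0.51 in the DMSO arrays and 2.11, 1.13 and 1.95 in the BA+DMSO arrays. The lowest BA+DMSO array lay above the highest DMSO array. The difference was 1.15 ± 0.25 (log2, SE, n = 3 per group), a 2.22-fold rise with a limma adjusted p of 0.0106. In bulk tissue more cells of a type and more RNA per cell cannot be told apart, here and in every comparison that follows.

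Psmb10, the counterpart of Psmb7, had levels of 3.70, 3.63 and 3.62 in DMSO and 4.73, 4.39 and 4.46 in BA+DMSO. It rose by 0.88 ± 0.17 (1.84-fold, limma adjusted p 0.00634), and the groups did not overlap. Psmb9, the counterpart of Psmb6, had levels of 0.82, 0.92 and 0.84 in DMSO and 1.96, 1.18 and 1.60 in BA+DMSO. Its rise was 0.72 ± 0.20 (1.65-fold, limma adjusted p 0.0303), again with no overlap. Over all genes tested, 15.4% lay higher and 20.1% lower without overlap between these groups, against the 3 immune genes higher and 1 gene, Psmc6, lower.

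**Figure D1:**
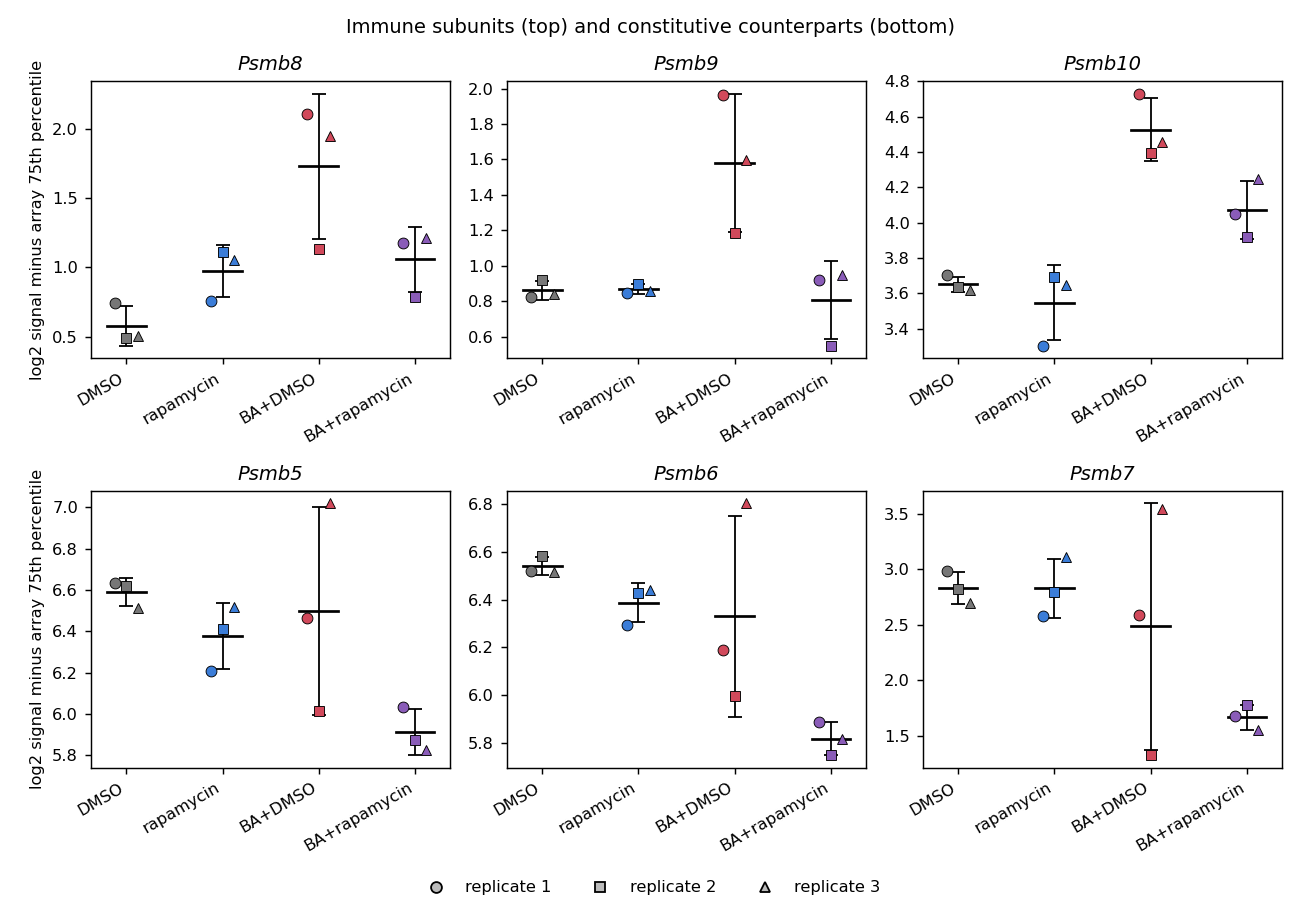
Levels of the 3 immune subunits (top row) and their constitutive counterparts (bottom row) on each array, as log2 signal minus the array's 75th percentile, with the group mean (line) and SD (bar) of 3 arrays. Psmb8, Psmb9 and Psmb10 lie higher on all 3 BA+DMSO arrays than on any DMSO array, while Psmb5, Psmb6 and Psmb7 overlap between these groups.

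The calls of the immune subunits depended on the slide term. All 3 were kept with slide as a random block, where 17.3% of all genes were called higher and 20.5% lower, and lost with slide as a fixed block, where 0.0549% and 0.00499% were. They were also lost with only the 2 groups compared (3.00% higher and 1.78% lower over all genes) and with array weights (0.429% and 0.0649%). The same held with the dates in the titles as a block (2.71% and 3.25%). Fewer of all genes were thus called in each fit that lost all 3 calls. The call of Psmb8 was lost without DMSO replicate 2 too. That of Psmb9, which was lost in 10 of 20 alternatives, was also lost without any 1 DMSO replicate or BA+DMSO replicate 1. It was lost as well with no filter on dim probes (5.51% higher and 3.12% lower over all genes) and with normexp background correction. With normexp more of all genes were called, 12% higher and 13.2% lower against 10.4% and 11.0%, so that loss did not go with fewer calls over all genes. With slide as a fixed block the differences were 0.83 for Psmb8, 0.51 for Psmb10 and 0.69 for Psmb9, and the limma adjusted p was 0.556, 0.574 and 0.562. This fit leaned on the rapamycin group, the only group on both slides, in which Psmb8 was 0.76 on the slide of the DMSO arrays and 1.11 and 1.05 on the other.

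The constitutive counterparts did not pass the test. Psmb5 had levels of 6.64, 6.62 and 6.51 in DMSO and 6.46, 6.02 and 7.02 in BA+DMSO (difference -0.09, limma adjusted p 0.811). Psmb6 had levels of 6.52, 6.58 and 6.52 and then 6.19, 6.00 and 6.81 (-0.21, adjusted p 0.482). Their groups overlapped, with BA+DMSO replicate 3 above and replicates 1 and 2 below all DMSO arrays. Psmb7 had levels of 2.98, 2.83 and 2.69 in DMSO and 2.59, 1.32 and 3.54 in BA+DMSO (-0.35, adjusted p 0.593), with the same order of arrays.

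The remaining classes lay close to 0. The median difference was -0.18 over the 7 alpha subunits, -0.08 over the 7 constitutive beta subunits, -0.00 over the 6 ATPases, -0.03 over the 11 non-ATPase subunits, -0.07 over the 7 assembly chaperones and 0.12 over the 5 activator or inhibitor genes. Over all genes tested it was -0.02. The most negative value belonged to Psmc6, an ATPase, whose levels of 2.92, 2.94 and 2.72 in DMSO stood above 2.36, 1.60 and 2.64 in BA+DMSO without overlap (-0.66 ± 0.25, limma adjusted p 0.086). Psme3, which encodes the nuclear activator PA28 gamma, was next at -0.65 (adjusted p 0.204). Outside the immune class the most positive was Psmd11, a non-ATPase subunit, at 0.28 (adjusted p 0.268). These small medians rested on single arrays. The median of the 44 genes other than the immune subunits was -0.05, but 0.16 without BA+DMSO replicate 2, -0.32 without replicate 3 and 0.34 with brightness as a covariate. Without replicate 3, Psmb6 (-0.45, limma adjusted p 0.0308), Psmc6 (-0.88, adjusted p 0.0173) and Psmg2 (-0.77, adjusted p 0.00762) were called lower beside the 3 immune subunits higher, where 21.0% of all genes were called lower and 18.5% higher. Within the alpha class values ran from -0.44 for Psma6 to 0.16 for Psma4, and within the chaperones from -0.51 for Psmg2 to 0.19 for Psmd5. The sign for Psma4 depended on the probe, since a second probe stood at -0.12.

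**Figure D2:**
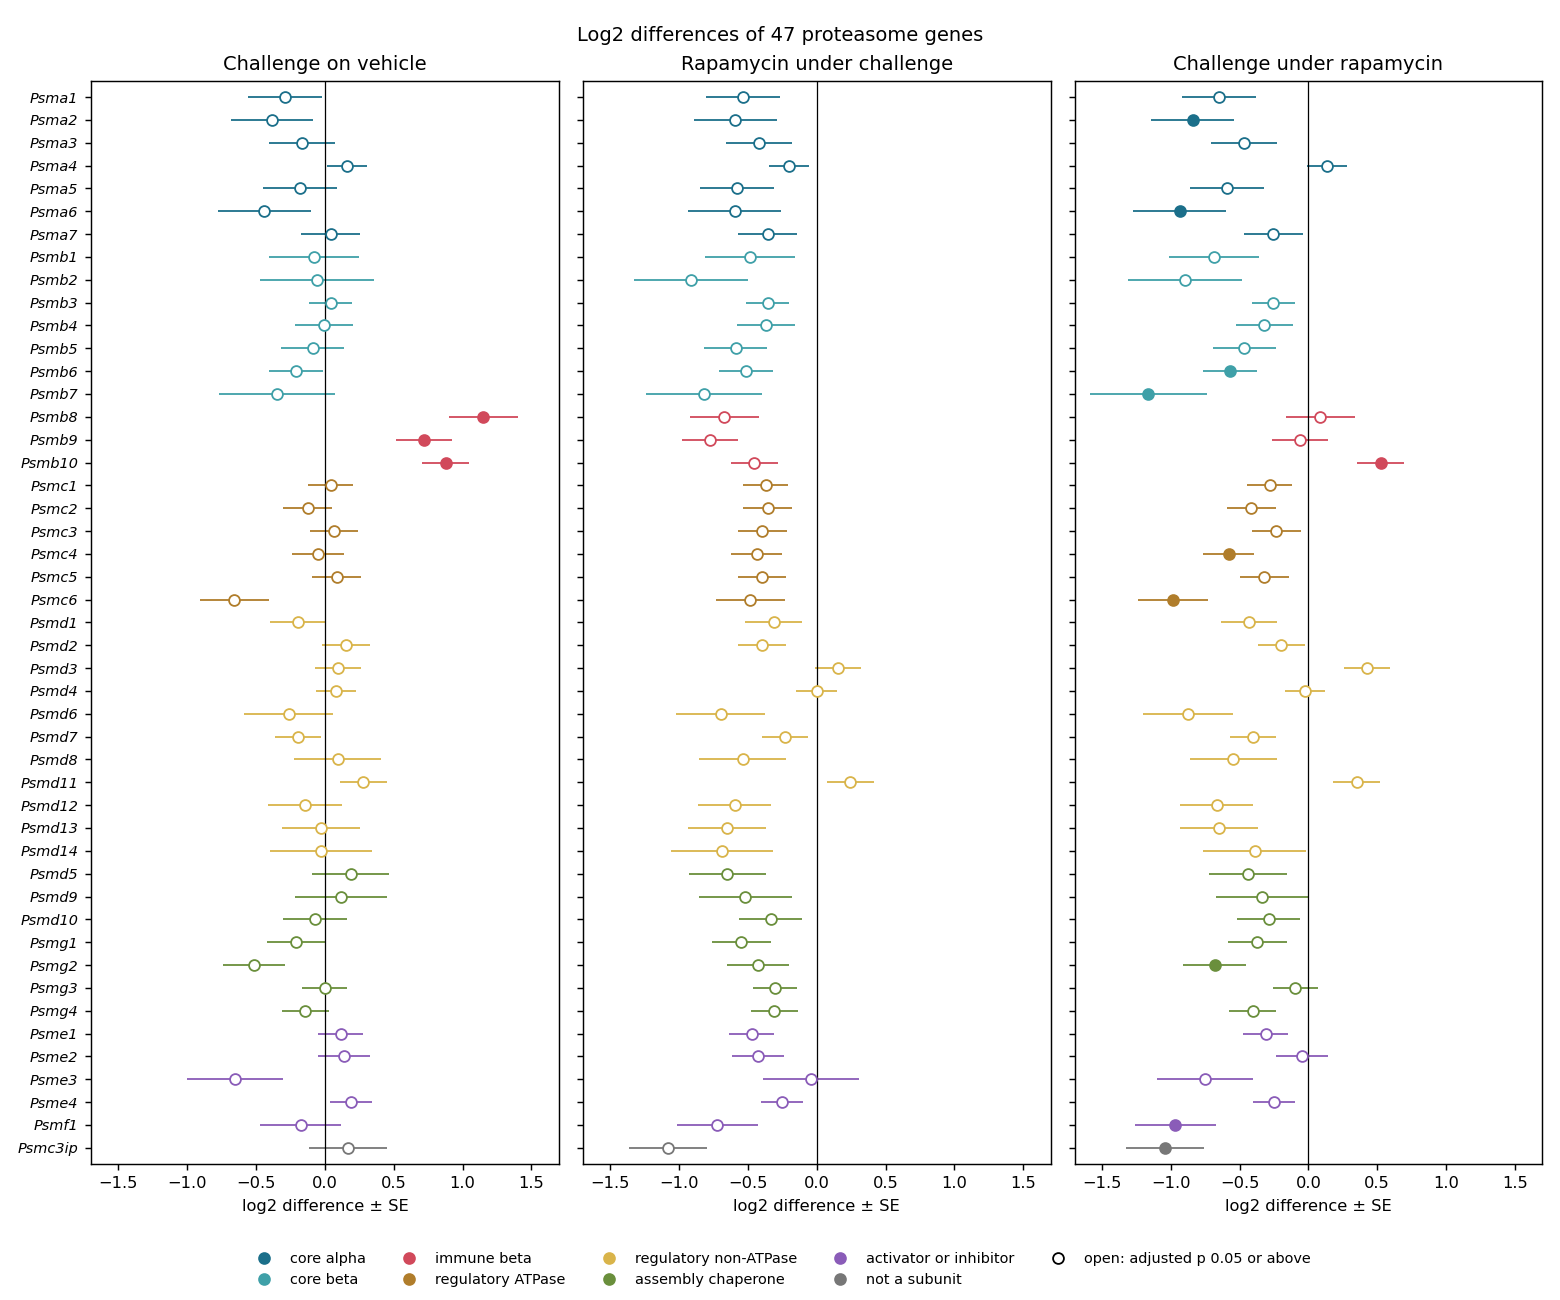
Log2 difference with SE for the 47 genes tested, by role, for the challenge on vehicle (left), rapamycin under challenge (middle) and the challenge under rapamycin (right), from 3 arrays per group. Filled points have a limma adjusted p under 0.05. On the left the 3 filled points are the immune subunits, in the middle no point is filled and 45 of 47 lie below 0, and on the right 9 filled points lie below 0 and Psmb10 above.

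Psme1 and Psme2 encode the alpha and beta subunits of the PA28 activator, which interferon gamma induces and which opens the core. Psme1 had levels of 3.92, 3.89 and 3.85 in DMSO and 4.01, 3.76 and 4.25 in BA+DMSO, and its difference of 0.12 ± 0.16 did not pass (limma adjusted p 0.646). Psme2 depended on the probe. The probe of highest mean, at chr14:56206296-56206355 in mm9, gave 5.48, 5.43 and 5.29 in DMSO and 5.61, 5.25 and 5.76 in BA+DMSO (0.14, adjusted p 0.63). The groups overlapped for this probe.

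The second Psme2 probe, at chr14:56208888-56209346 in mm9, gave 3.41, 3.35 and 3.30 in DMSO and 3.75, 3.89 and 3.85 in BA+DMSO. It rose by 0.47 ± 0.14 (1.39-fold, limma adjusted p 0.0405). The third, assigned to another transcript and mapped by its file to the wide interval chr14:56209736-56429032, rose from -1.67, -1.77 and -1.10 to -0.46, -0.26 and -0.71 (1.04 ± 0.22, adjusted p 0.00914). For these 2 probes all BA+DMSO arrays lay above all DMSO arrays, and which transcripts they read was not tested. With the mean of all tested probes of a gene, Psme2 was called too (0.55, adjusted p 0.0165).

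**Figure D3:**
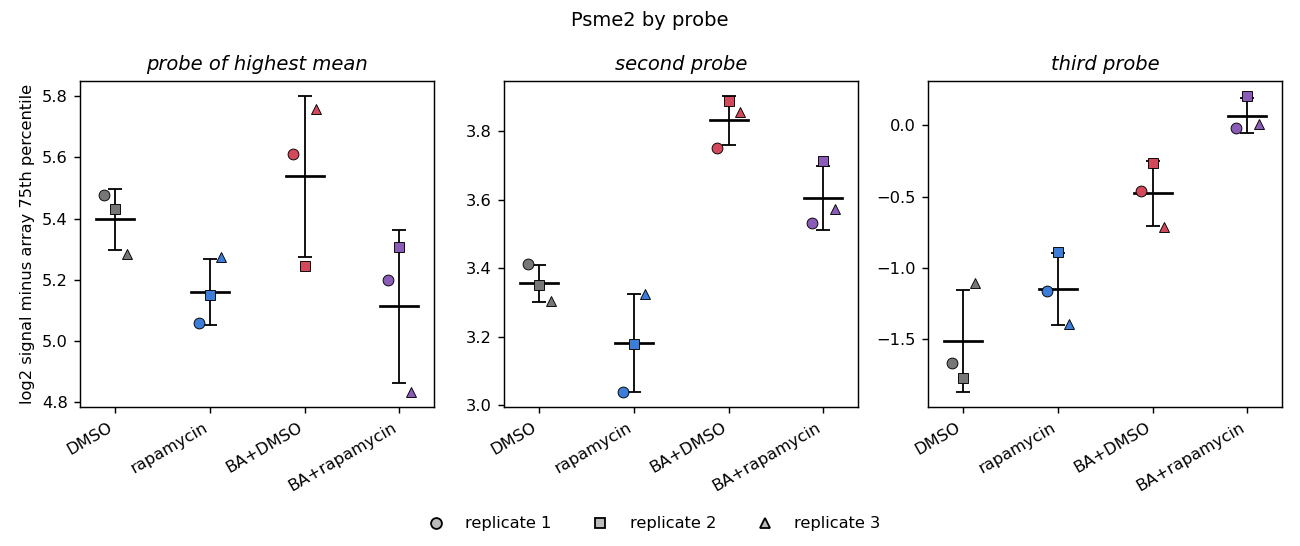
Levels of the 3 tested Psme2 probes on each array, as log2 signal minus the array's 75th percentile, with the group mean (line) and SD (bar) of 3 arrays. The DMSO and BA+DMSO arrays overlap for the probe of highest mean and are apart for the other 2 probes.

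Genes that work with the immunoproteasome were given from lists. Of 11 genes of MHC class I presentation tested, 1 rose with the challenge, the heavy chain gene H2-K1 (0.55 ± 0.15, limma adjusted p 0.0308), and none fell, where 10.4% of all genes rose and 11.0% fell. Tap1, the neighbour of Psmb9, stood at 0.34 (adjusted p 0.44) and was well above background on 8 arrays. B2m, the light chain of MHC class I, stood at 0.15 (adjusted p 0.742). The list's median was 0.15. Of 6 genes of interferon gamma signalling tested, none rose and 1 fell, the kinase gene Jak2 (fell by 0.79 ± 0.16, adjusted p 0.00794), and Irf1, a transcription factor that interferon gamma induces, stood at 0.17 (adjusted p 0.598). Ifng itself was well above background on 0 arrays and was not tested.

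Markers of leukocytes, which carry the immune subunits without interferon, rose with Psmb8, Psmb9 and Psmb10 in the challenge on vehicle. Of 13 leukocyte markers tested, 8 rose with the challenge and none fell, where 10.4% of all genes rose and 11.0% fell. The list's median difference was 1.74. Those that rose included the pan-leukocyte gene Ptprc (1.79, limma adjusted p 0.00528) and the macrophage genes Cd68 (2.63, adjusted p 0.00232) and Aif1 (2.31, adjusted p 0.000126). Set against the DMSO mean, the list's median level ran from -0.18 to 0.30 in DMSO, 0.20 to 0.51 in rapamycin, 1.40 to 2.30 on the arrays of BA+DMSO and 1.55 to 1.78 on those of BA+rapamycin. The B cell gene Ms4a1 was well above background on 4 arrays and was not tested. The part of leukocytes in the rise of the immune subunits was not tested.

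Markers of the other cells of the vessel differed between the BA+DMSO arrays. The 7 smooth muscle markers had a median difference of -0.56 with none called, and set against the DMSO mean the list's median level was -1.32, 0.23 and -0.11 on BA+DMSO replicates 1, 2 and 3. All 5 fibroblast markers were above 0 and 1 rose, the collagen gene Col1a1 (0.99, limma adjusted p 0.0243), with list medians of 1.23, -0.31 and 0.34 on these arrays. Of 5 endothelial markers 1 rose, Kdr (1.28, adjusted p 0.0154), and of 5 adipocyte markers 1 rose, Ucp1 (4.32, adjusted p 0.0143), which was well above background on 5 arrays. The medians of these 2 lists were 0.49 and 1.42, and 2 endothelial markers and 1 adipocyte marker lay below 0. No fibroblast, endothelial or adipocyte marker fell, where 10.4% of all genes rose and 11.0% fell. The part of these cells in the values of the proteasome genes was not tested.

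The second comparison asked what rapamycin did in challenged aorta. No proteasome gene passed the test, against 0.0649% of all genes called higher and 0.240% called lower by limma. The differences leaned 1 way: 45 of 47 lay below 0, against 51.8% of all genes. The median difference was -0.46, while that of all genes was -0.03. At an unadjusted p under 0.05, 20 of the 47 genes were lower and none higher, and 11.6% of all genes were lower. Counted in either direction, the number was 7, 5 and 6 without BA+rapamycin replicates 1, 2 and 3, and 8 without BA+DMSO replicate 1. It was 41 without BA+DMSO replicate 2, and 2 with only the 2 groups compared. The share of all genes at this unadjusted p was not computed for these fits, so the counts have no background beside them. At a limma adjusted p under 0.05, 24.0% of all genes were lower and 17.0% higher without BA+DMSO replicate 2. On 13 of the 47 genes all BA+rapamycin arrays lay below all BA+DMSO arrays and on none above, against 8.08% and 6.80% of all genes.

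Of the 3 immune subunits, Psmb9 and Psmb10 were among these 13. Psmb9 had levels of 0.92, 0.55 and 0.95 in BA+rapamycin, all below its 3 BA+DMSO levels (difference -0.78 ± 0.20, limma adjusted p 0.108). Psmb10 had 4.05, 3.92 and 4.24, also without overlap (-0.46 ± 0.17, adjusted p 0.202). Psmb8 had 1.17, 0.79 and 1.21, and overlapped BA+DMSO through its second replicate (-0.67 ± 0.25, adjusted p 0.2).

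Values below 0 were found in every structural class. All 7 alpha subunits were below 0, from -0.60 for Psma6 to -0.20 for Psma4, and all 7 constitutive beta subunits, from -0.91 for Psmb2 to -0.36 for Psmb3. The place of Psma4 depended on the probe, since a second probe stood at -0.63. All 6 ATPases lay between -0.48 for Psmc6 and -0.36 for Psmc2. Of 11 non-ATPase subunits 9 were below 0, the lowest being Psmd6 at -0.70. The exceptions were Psmd11 at 0.24 (limma adjusted p 0.388) and Psmd3 at 0.15 (adjusted p 0.564), while Psmd4, the ubiquitin receptor, stood at -0.00. The 7 assembly chaperones ran from -0.65 for Psmd5 to -0.30 for Psmg3, and the activator and inhibitor genes from -0.72 for Psmf1 to -0.04 for Psme3. The value of greatest size belonged to Psmc3ip, which is not a subunit, at -1.08 (adjusted p 0.107).

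All 11 tested genes of MHC class I presentation lay below 0 as well, with a median of -0.42 and none called. H2-K1 stood at -0.79 (limma adjusted p 0.0657) and B2m at -0.84 (adjusted p 0.179). The 13 leukocyte markers had a median of -0.37, and none was called.

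The calls turned on 1 array and the size of the differences on another as well. BA+DMSO replicate 2 was the lowest of its group for 42 of the 47 genes, and for 33 genes it lay below the highest BA+rapamycin array, as replicates 1 and 3 did for 4 genes each. The median SD over the 47 genes was 0.46 in BA+DMSO, 0.08 in DMSO, 0.14 in rapamycin and 0.10 in BA+rapamycin. Over all genes tested, the median SD in BA+DMSO was 0.49.

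Without BA+DMSO replicate 2, 39 of the 47 genes were called lower by limma and none higher, with a median of -0.67. Without BA+DMSO replicate 3, no proteasome gene was called, where 0.0849% of all genes were lower and 0.0449% higher. In that fit 5 had an unadjusted p under 0.05 and the median was -0.24, with 43 of 47 genes below 0. In the fit without replicate 2 the background rose as well, to 24.0% of all genes lower and 17.0% higher. Psmb8 (-0.97, adjusted p 0.0049), Psmb9 (-0.97, adjusted p 0.00374) and Psmb10 (-0.52, adjusted p 0.0322) were among the 39, as were Psmb5 (-0.83, adjusted p 0.00807), Psmb6 (-0.68, adjusted p 0.0144) and Psmb7 (-1.40, adjusted p 0.00535). The 8 genes not called were Psma4, Psmc1, Psmd3, Psmd4, Psmd7, Psmd11, Psme3 and Psme4. With replicate 2 left out the challenge on vehicle called the 3 immune subunits, Psmc3ip and Psmd5 higher and no gene lower, with 14.8% of all genes higher and 13.7% lower.

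**Figure D4:**
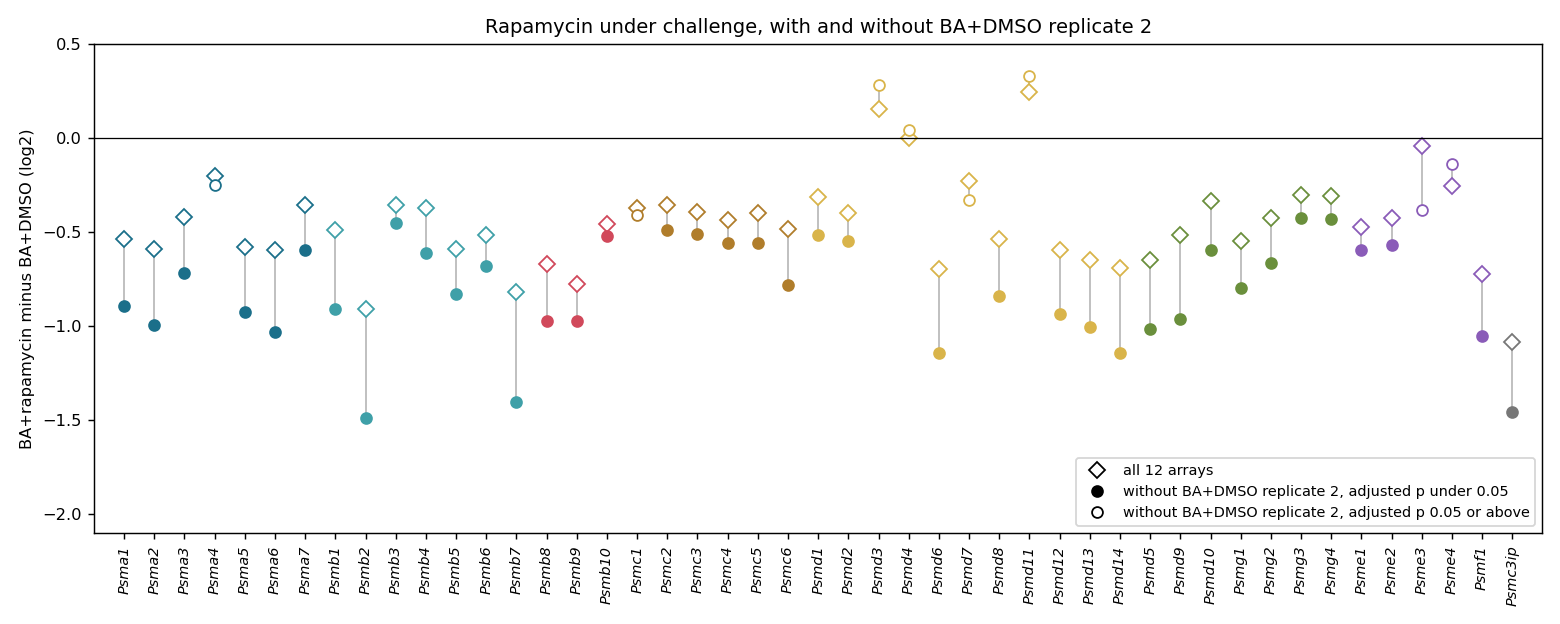
Difference between BA+rapamycin and BA+DMSO for each of the 47 genes on the log2 scale, with all 12 arrays (diamonds) and without BA+DMSO replicate 2 (circles, filled where the limma adjusted p is under 0.05), coloured by role as in the plot of differences by role. No diamond passes the test, and 39 circles are filled, all below 0.

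Brightness moved with the level of the genes other than the immune subunits. For the 44 genes other than the immune subunits, the median difference from the DMSO mean was -0.05, -0.56 and 0.36 on BA+DMSO replicates 1, 2 and 3, whose brightness was 132, 78.1 and 246. It was -0.51, -0.52 and -0.53 on the BA+rapamycin arrays, with a brightness of 109, 74.6 and 108. It lay between -0.18 and 0.08 on the 6 unchallenged arrays, all with a brightness of 221 or more. The order of the BA+DMSO arrays by brightness was thus their order by median, and the part of brightness in the shift was not tested beyond a fit with brightness as a covariate. In that fit the median under rapamycin and challenge was -0.23 with 43 of 47 genes below 0. The immune subunits followed this order only in part. Their medians were 1.10, 0.55 and 0.81 on the same BA+DMSO arrays and 0.40, 0.21 and 0.59 on those of BA+rapamycin. In both groups the dimmest array, replicate 2, was the lowest, while the brightest was not the highest. On the unchallenged arrays the medians were -0.03 to 0.05.

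**Figure D5:**
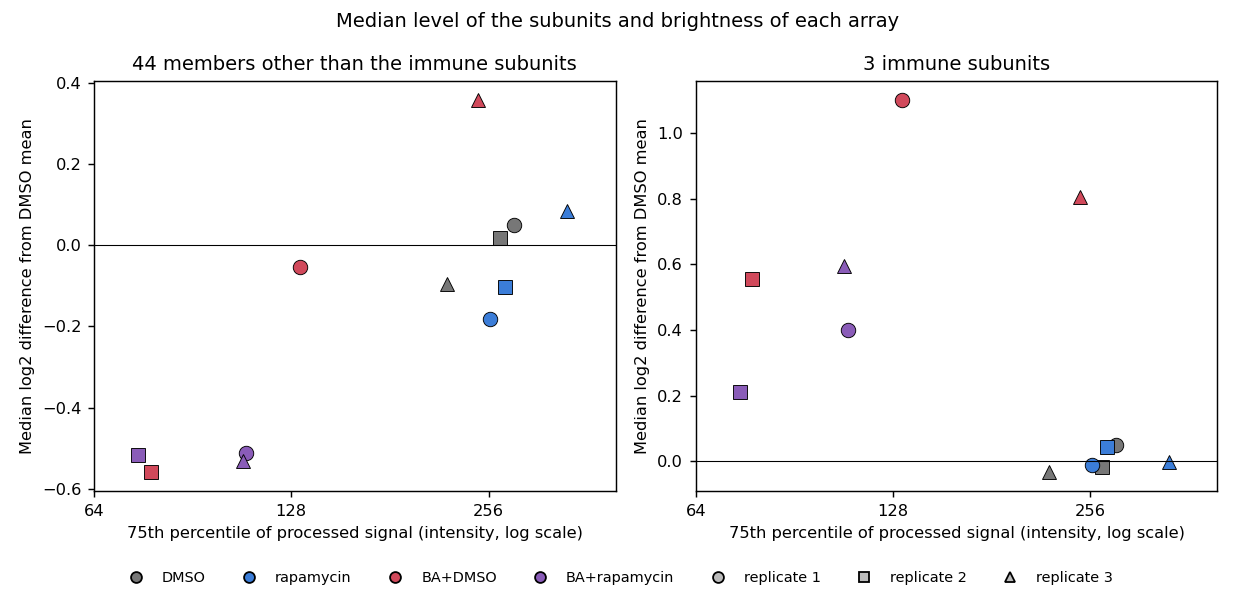
Median log2 difference from the DMSO mean on each array against the array's brightness (75th percentile of processed signal, log axis), for the 44 genes other than the immune subunits (left) and the 3 immune subunits (right). On the left the dimmest 4 arrays lie at -0.51 to -0.56, and on the right all 6 challenged arrays lie at 0.21 or above.

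Rapamycin alone was set against vehicle in unchallenged aorta. No proteasome gene was called by limma, none had an unadjusted p under 0.05, and the median difference was -0.06, with 0.00499% of all genes called higher and 0% lower. Single arrays moved this median, to -0.0011 without rapamycin replicate 1, -0.04 without rapamycin replicate 2 or DMSO replicate 1, -0.12 without DMSO replicate 3 and -0.13 without rapamycin replicate 3. Psmb8 had levels of 0.76, 1.11 and 1.05 in rapamycin, all above its DMSO levels, the lowest by little (0.39 ± 0.25). Psmb9 had 0.85, 0.90 and 0.86, and Psmb10 had 3.30, 3.69 and 3.64, both overlapping DMSO. At the other end Psmg1, a chaperone of alpha ring assembly, stood at -0.38.

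The challenge under rapamycin compared BA+rapamycin with rapamycin. It shares the BA+rapamycin arrays with the comparison above, so the values are given side by side and not as a second test of the same shift. By limma 9 proteasome genes fell and 1, Psmb10, rose, against 22.9% of all genes lower and 19.8% higher. The share of the 47 genes that fell was 19.1%, near that background. The median over the 47 genes was -0.41 and that over all genes -0.07. On 34 genes all BA+rapamycin arrays lay below all rapamycin arrays and on 3 above, against 36.6% and 31.2% of all genes.

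Psmb10 rose from 3.30, 3.69 and 3.64 in rapamycin to 4.05, 3.92 and 4.24 in BA+rapamycin, by 0.53 ± 0.17 (1.44-fold, limma adjusted p 0.0309), with no overlap. Psmb8 (0.09 ± 0.25, adjusted p 0.797) and Psmb9 (-0.06 ± 0.20, adjusted p 0.814) were not called and their groups overlapped. In the same arrays 7 of the 13 leukocyte markers rose and none fell, with a median of 1.22. Of the 11 genes of MHC class I presentation, 2 rose, the chaperones Calr (0.86, adjusted p 0.0049) and Pdia3 (0.71, adjusted p 0.0136), and 3 fell, H2-D1 (fell by 0.72, adjusted p 0.00824), the transporter gene Tap2 (fell by 0.42, adjusted p 0.0406) and Tapbpl (fell by 0.96, adjusted p 0.0339). Of the 6 interferon gamma signalling genes, Nlrc5, a transactivator of MHC class I genes, rose (0.57, adjusted p 0.0366) and Jak2 fell. In this comparison 19.8% of all genes rose and 22.9% fell, near the shares of the MHC class I list. The call of Psmb10 was lost without rapamycin replicate 1 or 3 or BA+rapamycin replicate 1 or 3, with slide or title date as a fixed block, on the slide of the challenged groups alone, with brightness as a covariate, with no filter on dim probes and with the normexp background correction, where the difference was 0.12 (adjusted p 0.616).

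The fall was largest for Psmb7, whose levels were 2.58, 2.79 and 3.11 in rapamycin and 1.68, 1.77 and 1.55 in BA+rapamycin (fell by 1.16 ± 0.42, limma adjusted p 0.0466). The groups did not overlap. Psmc6 had 2.57, 2.56 and 2.98 and then 1.80, 1.81 and 1.53 (fell by 0.98 ± 0.25, adjusted p 0.0115). Psmf1, which encodes the inhibitor PI31, had -0.80, -0.64 and -0.31 and then -1.61, -1.59 and -1.45 (fell by 0.97 ± 0.29, adjusted p 0.0235).

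The alpha subunits Psma6 (fell by 0.94, limma adjusted p 0.0446) and Psma2 (fell by 0.84, adjusted p 0.0427), the chaperone Psmg2 (fell by 0.68, adjusted p 0.0331), the ATPase Psmc4 (fell by 0.58, adjusted p 0.0294) and the catalytic subunit Psmb6 (fell by 0.57, adjusted p 0.0401) made up the rest, with Psmc3ip (fell by 1.04, adjusted p 0.0151). No non-ATPase subunit was called, and Psmd3 (0.43, adjusted p 0.0596) and Psmd11 (0.35, adjusted p 0.115) were above 0. The choice of probe mattered for 2 ATPases, since second probes of Psmc1 (fell by 0.58, adjusted p 0.0336) and Psmc3 (fell by 0.77, adjusted p 0.0339) were called where the probes of highest mean were not (-0.28 and -0.23). Most of these calls did not hold when 1 of the 6 arrays was left out, and fewer of all genes were called in each of those fits. Those of Psmb7, Psma6, Psma2, Psmb6 and Psmg2 were lost whichever of the 6 arrays was left out, and those of Psmb7 and Psma6 also with quantile normalization, cyclic loess and the deposited matrix. Psmc6 and Psmc3ip kept theirs without any 1 array but rapamycin replicate 3. With brightness as a covariate none of the 9 calls remained and the median of the 47 genes was 0.32, where 5.12% of all genes were called higher and 1.78% lower. Brightness did not overlap between these groups, at 257 to 337 in rapamycin and 74.6 to 109 in BA+rapamycin. Brightness and the challenge can thus be separated here only through the spread of brightness within groups.

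Differences within an array do not depend on its scaling. The immune subunit minus its constitutive counterpart was therefore compared between groups, with 12 two-sided exact permutation tests of 3 arrays against 3, in which the smallest possible p is 0.1 and no result can pass. With the challenge on vehicle the difference was larger by 1.24 for Psmb8 minus Psmb5 (exact p 0.1, adjusted p 0.171), by 0.93 for Psmb9 minus Psmb6 (exact p 0.1, adjusted p 0.171) and by 1.23 for Psmb10 minus Psmb7 (exact p 0.2, adjusted p 0.3). Psmb10 minus Psmb7 was 0.72, 0.81 and 0.92 in DMSO and 2.14, 3.07 and 0.91 in BA+DMSO, so that the groups overlapped through BA+DMSO replicate 3, and without BA+DMSO replicate 2 its change was 0.71. Under rapamycin the change with the challenge was 0.55, 0.51 and 1.69 (exact p 0.1, adjusted p 0.171 each). There Psmb8 and Psmb9 themselves differed by 0.09 and -0.06 with the challenge, and their counterparts Psmb5 and Psmb6 by -0.47 and -0.57. In challenged aorta the change with rapamycin was -0.08, -0.26 and 0.37 (exact p 0.8, 0.5 and 0.7), and single arrays set these values and their signs. Psmb8 minus Psmb5 changed by 0.12 without BA+DMSO replicate 1 and by 0.03 without BA+rapamycin replicate 2. Psmb9 minus Psmb6 ran from -0.49 without BA+DMSO replicate 3 to 0.00071 without BA+DMSO replicate 1, and Psmb10 minus Psmb7 from -0.20 without BA+DMSO replicate 3 to 0.88 without BA+DMSO replicate 2. With rapamycin alone the changes were 0.60, 0.16 and -0.10 (exact p 0.1, 0.1 and 0.5). That of Psmb10 minus Psmb7 ran from -0.19 without rapamycin replicate 2 to -0.0037 without rapamycin replicate 3.

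The interaction asked whether rapamycin acted differently with and without the challenge. No proteasome gene was called by limma, nor was any other gene (0% in each direction). Of the 47 genes 45 lay below 0 with a median of -0.36. That median was -0.14 without BA+DMSO replicate 3 and -0.56 without replicate 2. With brightness as a covariate 28 lay below 0 with a median of -0.05. In the fit without that covariate 3 were lower at an unadjusted p under 0.05, where 3.47% of all genes were. Without BA+DMSO replicate 2, 12 genes were called lower and none higher, against 7.41% and 3.79% of all genes. These 12 included Psmb8 (-1.37, adjusted p 0.0272) and Psmb9 (-0.98, adjusted p 0.0363) and the constitutive Psmb2 (-1.42, adjusted p 0.038) and Psmb7 (-1.40, adjusted p 0.0428).

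Genes that assemble, regulate or feed the proteasome were taken from a list of 30 partners, of which 29 were tested. With the challenge on vehicle 1 of the 29 rose and 5 fell, where 10.4% of all genes tested rose and 11.0% fell. The gene that rose was Rad23b, a shuttle for ubiquitinated proteins (0.50, limma adjusted p 0.0416). Among those that fell were Ubqln2, another shuttle (fell by 0.54, adjusted p 0.0181), Zfand5 (fell by 1.01, adjusted p 0.0227), Zfand2a (fell by 0.70, adjusted p 0.0377) and Ngly1 (fell by 0.92, adjusted p 0.0111). Ngly1 encodes a glycanase that helps to activate the transcription factor Nfe2l1, a regulator of proteasome subunit genes.

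Under rapamycin 3 of the 29 partners rose with the challenge and 10 fell, where 19.8% of all genes tested rose and 22.9% fell. Among those that rose, Nfe2l1 rose by 1.00 ± 0.30 (limma adjusted p 0.0207), as did Ddi2, the protease that cuts its product (1.11 ± 0.32, adjusted p 0.0199). Ngly1 fell by 1.84 ± 0.20 (adjusted p 0.000234), and the related factor Nfe2l2 fell by 0.95 ± 0.32 (adjusted p 0.0337). The assembly factor Pomp was not called in any comparison. Ngly1 was also the only partner called for rapamycin under challenge (fell by 1.16 ± 0.20, adjusted p 0.0498), and it was well above background on 8 of the 12 arrays.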

How the data were processed

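RNA from the aorta of 12 mice in 4 groups of 3 was labelled with Cy3 and hybridised to one-colour Agilent mouse arrays. The file headers name Feature Extraction 10.7.1.1, and the submitters' processing notes 9.5.1.1. The deposited scanner files hold 62976 spots each, of which 3671 are controls. Their processed signal is an intensity that the authors' scanner software had corrected for background, with no scaling across arrays. The mean brightness of each spot and its surrounding background were deposited as intensity too. Other deposited columns are flags per spot, a score of 0 or 1 for well above background, saturated or outlier. A deposited matrix holds intensity that correlated at 0.9999 or higher with quantile-normalized processed signals computed here. The tool for that step was not given in the sources used here.

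Outlier spots were removed, spots of a probe were averaged as log2 values, and each array's 75th percentile was subtracted. Of 55681 probes 6 without a value on every array were dropped. A probe was tested if some group had, on each of its 3 arrays, at least 0.5 of the probe's spots well above background, which left 27801 probes and 20026 gene names. No spot was saturated. All arrays went into 1 limma 3.58.1 model with a mean per group (8 residual degrees of freedom, R 4.3.3 with data.table version 1.17.8), with two-sided tests and Benjamini-Hochberg adjustment over all tested probes in each contrast. The procedure was tested on simulated data. The number of arrays limits the precision. Figures were drawn with Python 3.11.15 and matplotlib 3.10.9.

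The contrasts were BA+DMSO minus DMSO, BA+rapamycin minus BA+DMSO, rapamycin minus DMSO, BA+rapamycin minus rapamycin, with the second minus the third as the interaction. A gene stood by its tested probe of highest mean. Samples were grouped by their treatment labels, and replicates were numbered in order of deposition. The genes and lists were chosen with earlier results of these data known. Genes named with values are the immune subunits, their counterparts, Psme1, Psme2, called genes, the extremes of each role, and called genes of the lists. Tap1, B2m, Irf1, Psmd4 and the other genes named outside this rule were chosen after their values were seen. Some genes of the lists enter the counts and are not reported here by name. Alternatives covered scaling, background correction, the filter on dim probes, slide, title date, samples in the fit, array weights, brightness, probe choice and each replicate. The comparison of rapamycin replicate 1 with DMSO on their shared slide and the fit with title date as a block were chosen after seeing the data. Probe positions are mm9 per the file headers, and upstream sequences and gene starts are from RefSeq for GRCm38.p6. All 49 symbols were found among the RefSeq genes.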

Additional observations from a re-analysis of the deposited data

Results flagged for a closer look

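For 4 of the 47 genes rapamycin had opposite directions with and without the challenge, a share no larger than the 10.3% of all genes tested. In unchallenged aorta all 3 rapamycin-treated arrays lay on one side of the vehicle mean, and in challenged aorta all 3 on the other. The gap between the 2 differences was -1.07 for Psmb8, which was 0.39 in unchallenged and -0.67 in challenged aorta. It was -1.21 for Psmc3ip (0.12 and -1.08), -0.44 for Psme4 (0.19 and -0.25), the gene of the activator PA200, and 0.33 for Psmd3 (-0.18 and 0.15). The challenge likewise differed in direction for Psme4, 0.19 with vehicle and -0.25 with rapamycin, a gap of 0.44, a pattern that 1.29% of all genes showed. Both reversals of Psme4 depended on the probe. A second probe gave -0.37 and -0.33 for the challenge with vehicle and with rapamycin. For rapamycin it gave 0.04 in unchallenged and 0.07 in challenged aorta. The interaction test by limma gave adjusted p values of 0.735 for Psmc3ip and 0.737 for the other genes, so none of these gaps passed with all arrays. Without BA+DMSO replicate 2 it passed for Psmb8 (-1.37, adjusted p 0.0272) and Psmc3ip (-1.58, adjusted p 0.0239), where 7.41% of all genes were called lower. Both genes had been picked by their opposite values on the same arrays, so this is no separate test.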

How the results depend on the processing

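The rise of the 3 immune subunits with the challenge was called under quantile normalization, the 75th percentile over probes detected on all arrays, cyclic loess and the deposited matrix. Across 20 alternatives Psmb10 kept its call in 16, Psmb8 in 15 and Psmb9 in 10, and none changed sign. Of the 47 genes, 3 were called for the challenge on vehicle, against 0 with slide as a fixed block, 5 with slide as a random block (3 higher, and Psmc6 and Psmg2 lower), 0 with only the 2 groups compared, 0 with array weights, whose estimation did not converge, 0 with title date as a block, and 9 with brightness as a covariate, all higher, of which 6 are not immune subunits. The share of all genes called, 10.4% higher and 11.0% lower, was 0.0549% and 0.00499%, 17.3% and 20.5%, 3.00% and 1.78%, 0.429% and 0.0649%, 2.71% and 3.25%, and 12.2% and 7.34% in these 6 fits in the same order. With normexp 2 were higher, Psmb9 not among them, and Psmc6 was lower, where 12% of all genes were higher and 13.2% lower. With no filter on dim probes 2 were higher, again without Psmb9, where 5.51% of all genes were higher and 3.12% lower. Without 1 replicate the count ran from 1 (without DMSO replicate 2) to 6 (without BA+DMSO replicate 3, 3 of them lower). It was 5 without BA+DMSO replicate 2. In these fits, in the same order, 4.57%, 18.5% and 14.8% of all genes were higher and 3.31%, 21.0% and 13.7% lower. For rapamycin under challenge the count of 0 became 39 without BA+DMSO replicate 2, where 24.0% of all genes were lower and 17.0% higher. It stayed 0 without any other replicate. For rapamycin alone the count was 0 in all settings but array weights (1, with 2.76% of all genes higher and 2.99% lower). For the interaction it ran from 0 to 12 without 1 replicate. The 12 came without BA+DMSO replicate 2, where 7.41% of all genes were lower and 3.79% higher. For the challenge under rapamycin 10 genes were called, against 31 with normexp, 3 with slide as a fixed block, 0 on the slide of the challenged groups alone, 28 with only the 2 groups compared, 33 with array weights, 1 with title date as a block and 0 with brightness as a covariate. The share of all genes called moved as well, from 19.8% higher and 22.9% lower to 34.0% and 28.3% with normexp, 27.0% and 30.8% with only the 2 groups, 31.1% and 35.7% with array weights, 13.8% and 15.4% with slide as a fixed block, 6.32% and 5.65% on the challenged slide, 6.57% and 6.14% with title date and 5.12% and 1.78% with brightness. Without 1 replicate of rapamycin or BA+rapamycin the count of 10 ran from 0 (without rapamycin replicate 3) to 4. Each of these 6 arrays thus moved it. Fewer of all genes were called in each of these fits as well. Their shares ran from 11.4% higher and 12.8% lower without rapamycin replicate 3 to 17.0% and 18.5% without BA+rapamycin replicate 1. With brightness as a covariate 8 of the 9 genes that fell turned sign without a call: Psma2 0.28, Psma6 0.35, Psmb6 0.12, Psmb7 0.61, Psmc3ip 0.0090, Psmc4 0.019, Psmf1 0.24 and Psmg2 0.21. Brightness did not overlap between rapamycin and BA+rapamycin, so this fit separates it from the challenge only through the spread within groups. The cause of the turned signs was not tested. The median of all genes moved by over 0.1 with the 75th percentile over detected probes (to 0.12 for both comparisons with BA+rapamycin and 0.08 for the interaction), with normexp for the challenge under rapamycin (from -0.07 to 0.04) and with no filter on dim probes in every comparison but rapamycin alone (to 0.69 for the challenge under rapamycin). No paired analysis was possible because the replicate numbers follow the order of deposition and pair no mice. The fit with title date as a block was chosen after seeing the data. It used the 10 dated arrays, with 1 BA+DMSO array that is assumed to vary like the others. Replicates 2 and 3 of DMSO and of rapamycin share 1 date, and among these 4 arrays the median for rapamycin alone was 0.01 with 0 genes called. On the slide of the DMSO group, with 1 rapamycin array, it was -0.18 with 41 of 47 genes below 0 and 0 called.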

Other observations

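Psme1, the alpha subunit of the PA28 activator, was printed on each array 10 times and so gave a measure of spot error. The SD over its spots ran from 0.03 to 0.06 (log2), with 9 usable spots on BA+rapamycin replicate 2. Its means over the 3 BA+DMSO arrays were 4.01, 3.76 and 4.25.

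Erythroid markers (Hba-a1, Hbb-b1, Alas2 and Slc4a1) rose in all 4 tested genes with the challenge on vehicle. The erythroid markers' median level against the DMSO mean ran from -1.26 to 0.89 in DMSO, from 0.85 to 2.02 in rapamycin, from 1.42 to 2.42 in BA+DMSO and from 2.82 to 3.46 in BA+rapamycin. Of 7 striated muscle markers 1 fell with the challenge on vehicle, Myh7 (fell by 1.72, limma adjusted p 0.00953), and none rose. The shares over all genes in that comparison were 10.4% higher and 11.0% lower. The striated muscle list ran from -0.08 to 0.26 in DMSO, from -1.24 to -0.45 in rapamycin, from -2.41 to -0.29 on the arrays of BA+DMSO and from -1.49 to 0.40 on those of BA+rapamycin.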
